A study of Homo sapiens with 6 samples.

Results

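The proteasome is the barrel-shaped protease that breaks down ubiquitin-tagged proteins in the cytosol and nucleus, and its genes were followed here in MDA-MB-231, an established human triple-negative breast cancer cell line. All genes whose symbol begins with PSMA, PSMB, PSMC, PSMD, PSME, PSMF or PSMG and a digit were taken, which gave 49 of the 23228 genes listed. A lentivirus had brought in a short hairpin RNA (shRNA), which was scrambled in 3 libraries (called scramble) and directed at SCUBE3, a secreted protein with EGF-like repeats, in the 3 others (called labelled knockdown). Both groups had been grown in DMEM with serum and kept under puromycin for a week before RNA was taken, so both carry a vector and a resistance gene. How many shRNA sequences were used, and whether the cells were a pool or a clone, is not given in the sources used here. The libraries are numbered as replicates with no word on separate cultures. A p-value below thus sets a group difference only against the scatter of these libraries, and that scatter may be technical. In bulk RNA, more RNA per cell and more cells with the RNA cannot be told apart.

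The core of the proteasome, the 20S particle, is a stack of rings. Alpha subunits (PSMA genes) form the outer rings and gate the channel, and beta subunits (PSMB genes) form the inner rings, in which PSMB5, PSMB6 and PSMB7 carry the cutting sites. A regulatory cap, the 19S particle, adds a ring of ATPases (PSMC genes) that unfold the substrate and a set of non-ATPase subunits (PSMD genes) that bind and remove ubiquitin. Interferon-gamma is known to raise PSMB8, PSMB9 and PSMB10, which replace PSMB5, PSMB6 and PSMB7 in newly built particles to give the immunoproteasome, and PSME1 and PSME2, which form an alternative cap. These particles are known for cutting peptides that MHC class I molecules present, and they prevail in blood cells, whereas most solid tissues hold mainly the constitutive form.

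The labels were checked first on SCUBE3 itself. SCUBE3 had 96, 91 and 80 reads in scramble and 99, 107 and 101 in labelled knockdown, so no fall in its RNA was seen (log2 fold change 0.03 ± 0.14 (SE), adjusted p = 0.871 in edgeR's quasi-likelihood test; exact two-sided permutation p = 0.8, n = 3 per group). The groups are therefore named by their labels only, and every direction below is that of the labels. The labels' protocols mention a check of the SCUBE3 protein by western blot, which is not analysed here. Reads in genes ran from 21348509 to 25520901 per library. Of 4 genes known to be high in this line, VIM had 4369.8 and 2394 CPM in scramble and labelled knockdown (counts per 1000000 reads in genes, scaled by TMM, a library-wide factor), AXL 1281 and 1139, CD44 577 and 1046 and EGFR 394 and 220.3, so all 4 were present while VIM, AXL and EGFR fell and CD44 rose. Of 4 genes known to be low, ESR1 had 0.118 and 0 CPM and PGR 0.982 and 0, whereas GATA3 (5.91 and 15.5) and ERBB2 (53.4 and 92.2) were read in both groups and rose. Since blood cells are rich in immunoproteasome, 14 blood cell markers were examined. PTPRC, the pan-leukocyte marker, had 0.133 CPM in scramble and 0.145 in labelled knockdown, and 4 of the 14 (CD3D, MS4A1, TYROBP and NKG7) had 0 reads in every library. The summed level of the list was 178 to 191 CPM in scramble and 116 to 121 in labelled knockdown, most of it LAPTM5 (185 and 106 CPM). CD14 and CSF1R went the other way, from 0.234 to 6.19 and from 0.297 to 5.29 CPM.

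Promoter sequence sets the inducible genes beside the others. The letters GAAANNGAA, the core of the interferon-stimulated response element, were searched on both strands from 250 bases before to 50 bases after each start in RefSeq's table (GRCh38.p14), which held 43 of the 49 genes. Of all 27305 genes there, 9.86% had a match (8.11% of all windows). A match was found for 4 of the 5 inducible genes, PSMB8, PSMB10, PSME1 and PSME2, but not in the window of PSMB9, and for 4 of the 38 others (10.5%): PSMA4, PSMB4, PSMC2 and PSMG4. The 8 matches are shown because their inner letters differ. Each stretch is read 5′ to 3′ on the strand that gives GAAANNGAA, with that core in capitals and 10 bases on either side.
PSMB8 (chr6:32844032-32844060, plus strand): aggaggaagtGAAAGCGAAagccacagat
PSMB10 (chr16:67936853-67936881, minus strand): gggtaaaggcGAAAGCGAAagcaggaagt
PSME1 (chr14:24136190-24136218, minus strand): accgcgaaggGAAAGCGAAagcggtaggg
PSME2 (chr14:24146620-24146648, minus strand): cctggggagtGAAAGCGAAagcccgggcg
PSMG4 (chr6:3258904-3258932, plus strand): ttccggggccGAAAGCGAAagcgcgctcg
PSMA4 (chr15:78540155-78540183, plus strand): atagtgaagaGAAAATGAAaggagagcgc
PSMB4 (chr1:151399495-151399523, plus strand): tcgtctacagGAAAAAGAAagaaatgaca
PSMC2 (chr7:103347626-103347654, plus strand): gtggggaaggGAAAGGGAAgacaccaccg
All 4 inducible genes share the exact core GAAAGCGAA, and PSMG4, an assembly chaperone gene, has it as well. PSMA4, PSMB4 and PSMC2 have other letters at the 2 open positions. The exact core, whose letters were chosen after the matches had been seen, occurs for 90 of the 27305 genes (0.330%). It begins 28 bases before the start in PSME2, 21 before in PSMB10 and 33 before in PSMG4. In PSME1 it lies 7 to 15 bases after the start, and in PSMB8 it spans 1 of its 2 annotated starts. A match describes letters in a window and does not show that a factor binds there.

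Reads of the 49 genes made up 0.738% to 0.750% of all reads in genes in scramble and 0.833% to 0.850% in labelled knockdown. PSMA8, an alpha subunit of the testis, and PSMB11, a beta subunit of the thymus, were listed with 0 reads throughout. A count of 0 leaves room for 0.0448 CPM in scramble and 0.0397 CPM in labelled knockdown, set at 3 reads summed over a group and covering counting error alone. The other 47 passed the filter on low counts. Of these, 27 rose, 14 fell and 6 did not pass (quasi-likelihood test of edgeR, p adjusted over all genes tested by Benjamini-Hochberg, threshold 0.05). That is 41 of 47 called, where 85.9% of all 13606 genes tested were called, 43.4% higher and 42.5% lower, so the number of calls is close to the background of these libraries. Against a change of 1.5-fold in place of 0 (edgeR glmTreat), 14 of 47 were higher and 7 lower. The background of that test was 45.9% of all genes, 24.3% higher and 21.6% lower. In 5898 of the 13606 genes tested every labelled knockdown library lay above every scramble library, and in 5778 every one lay below. For the 47 genes these numbers were 28 and 13. Groups without overlap are thus the rule in these libraries and do not single out a gene below. The median log2 fold change was 0.19 over the 47 genes and 0.0087 over all genes tested.

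**Figure D1:**
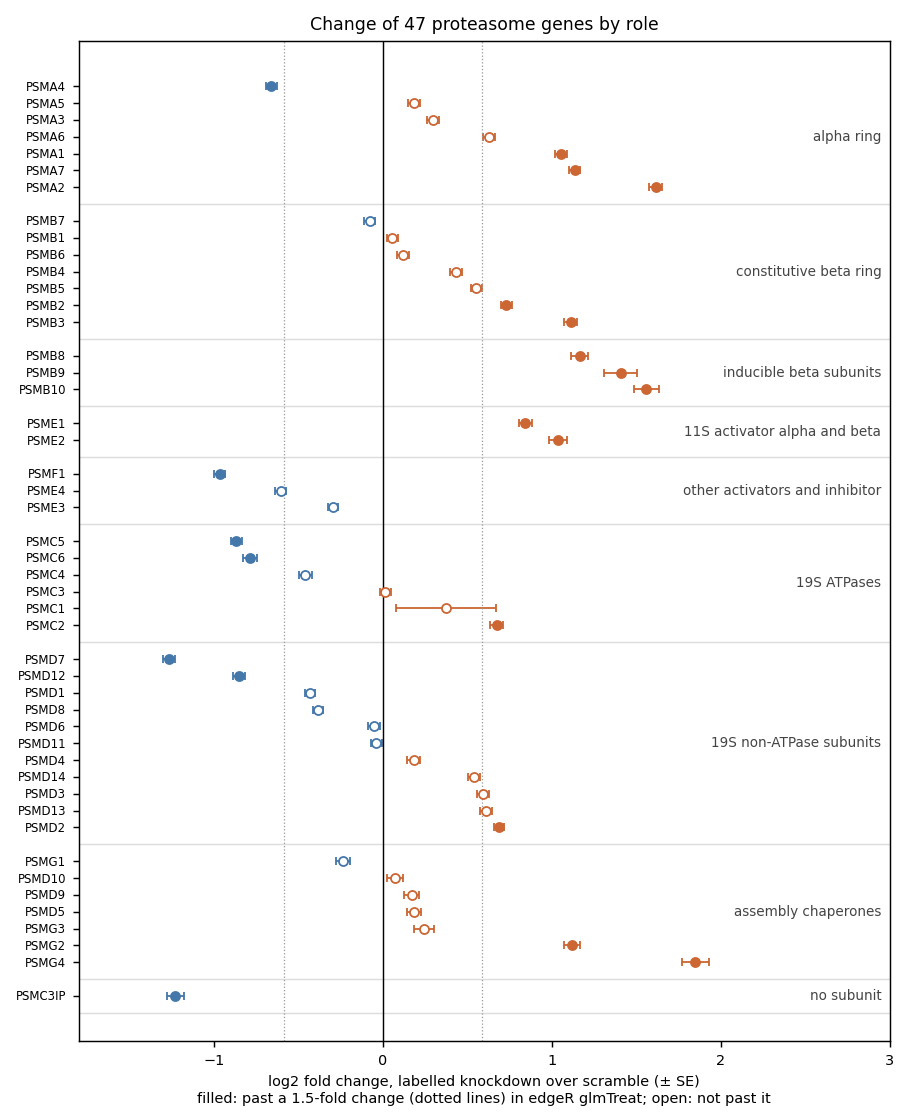
Log2 fold change (labelled knockdown over scramble, n = 3 libraries per group) of the 47 proteasome genes with reads, 1 point per gene with its standard error, grouped by role. Filled points passed the test against a 1.5-fold change, which the dotted lines mark. All 5 inducible genes and 5 of the 14 constitutive 20S genes are filled on the right. The alpha ring and the 19S groups have filled points on both sides.

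The inducible genes all rose. PSMB8, PSMB9, PSMB10, PSME1 and PSME2 were 5 of 5 higher, also against a 1.5-fold change, with a median log2 fold change of 1.16. The 42 remaining genes tested had a median of 0.18, with 22 higher and 14 lower, and 9 and 7 against 1.5-fold. These counts are read beside the 24.3% of all genes that were higher by that test. The summed blood cell markers were lower in labelled knockdown while CD14 and CSF1R were higher, as given above, and their part in the rise of the inducible genes was not tested.

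PSMB8, which takes the place of PSMB5, had 35.9, 34.2 and 36.4 CPM in scramble and 80.6, 80.98 and 77.3 CPM in labelled knockdown. The lowest labelled knockdown library lay well above the highest scramble library, and the log2 fold change was 1.16 ± 0.05 (SE; edgeR adjusted p = 1.95e-23). PSMB9, which takes the place of PSMB6, had 12.1, 15.4 and 14.8 CPM in scramble and 32.1, 42.01 and 37.5 CPM in labelled knockdown. Its standard error was the largest of the 5 genes, yet the groups did not overlap (log2 fold change 1.41 ± 0.10, edgeR adjusted p = 9.44e-11). PSMB10, which takes the place of PSMB7, had 10.3, 10.3 and 10.9 CPM in scramble and 30.01, 32.2 and 30.7 CPM in labelled knockdown. The groups lay far apart, and its change was the largest of the 5, 1.56 ± 0.07 on the log2 scale (edgeR adjusted p = 4.82e-22).

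PSME1 and PSME2 encode the alpha and beta chains of the interferon-inducible 11S cap, which opens the gate of the 20S particle without ATP. PSME1 had 94.8, 92.2 and 98.9 CPM in scramble and 171, 174 and 168 CPM in labelled knockdown, the smallest change of the 5 (log2 fold change 0.84 ± 0.04, edgeR adjusted p = 1.36e-22). PSME2 had 29.6, 31.3 and 29.8 CPM in scramble and 62.4, 64.4 and 59.2 CPM in labelled knockdown (log2 fold change 1.04 ± 0.05, edgeR adjusted p = 1.49e-20). The 3 libraries of each group stood apart for both chains. For PSME2, 45.5% of the 50-base stretches of its transcript also occur, with up to 2 mismatches, in transcripts of other loci, most often the pseudogene PSME2P2, so its level is less certain. That share was 0% for PSMB8, PSMB9, PSMB10 and PSME1. Part of the PSMB8 transcript (31.5%) overlaps exons on the other strand, and 45.3% of PSMB10 overlaps another annotated gene on its own strand. The part of such overlaps in these counts was not tested. PSMB8 and PSMB9 lie in the MHC region, and whether the alignment held alternative copies of it is not given in the sources used here.

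**Figure D2:**
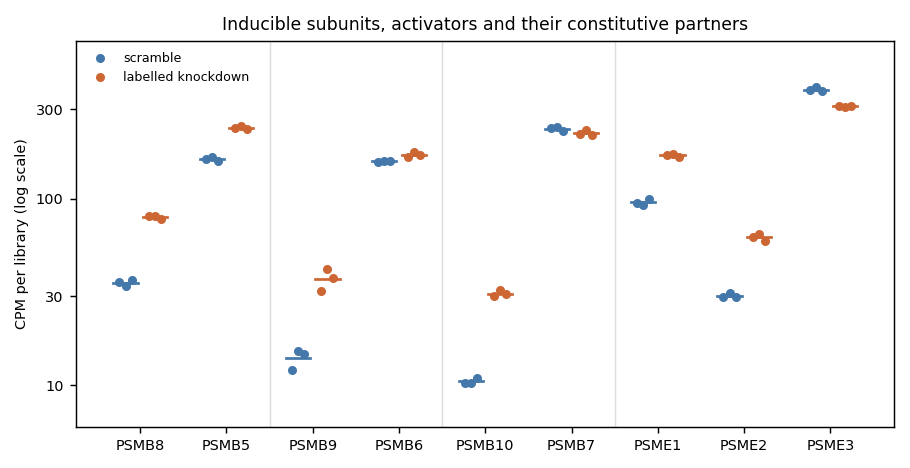
CPM (log axis) of the 5 inducible genes and of their constitutive counterparts PSMB5, PSMB6, PSMB7 and PSME3 in each library, with a line at the mean of the 3 libraries of a group. CPM are not per length of transcript, so points compare between groups, not between genes. The inducible genes are higher in labelled knockdown in every library, and so is PSMB5, while PSME3 is lower. PSMB6 and PSMB7 differ little between the groups. Groups without overlap were the rule over all genes tested.

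Set against the subunit that each one replaces, the inducible genes gained within every pair. These ratios are taken inside a library, so no scaling enters them. For every 100 reads of PSMB5 there were 21.98, 20.4 and 22.9 reads of PSMB8 in scramble and 33.8, 33.1 and 32.8 in labelled knockdown, a log2 change of 0.61. PSMB5, the chymotrypsin-like site, itself rose, from 163, 168 and 159 to 238, 245 and 236 CPM (log2 fold change 0.55 ± 0.03, edgeR adjusted p = 3.23e-18) and this pair shifted least of the 3 catalytic pairs. For every 100 reads of PSMB6 there were 7.74, 9.71 and 9.27 reads of PSMB9 in scramble and 19.3, 23.5 and 21.99 in labelled knockdown, a log2 change of 1.28. PSMB6, the caspase-like site, had 157, 158 and 159 CPM in scramble and 167, 179 and 170.5 in labelled knockdown, a small rise (0.12 ± 0.04, edgeR adjusted p = 0.00182).

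The pair of PSMB10 and PSMB7 shifted most. For every 100 reads of PSMB7 there were 4.31, 4.29 and 4.71 reads of PSMB10 in scramble and 13.6, 13.8 and 13.97 in labelled knockdown, a log2 change of 1.64. PSMB7, the trypsin-like site, had 239, 240.4 and 231 CPM in scramble and 221, 233 and 219 in labelled knockdown, groups that overlap. Its log2 fold change of -0.08 ± 0.03 passed (edgeR adjusted p = 0.0267) but not without labelled knockdown replicate 1 (-0.06, edgeR adjusted p = 0.125), without labelled knockdown replicate 3 (-0.06, 0.165) or with library totals in place of TMM (-0.03, 0.434). Among the caps, PSME1 gained 1.14 and PSME2 1.33 on the log2 scale over PSME3, the gamma activator of the nucleus. All 5 ratios stood apart between the groups, each with an exact two-sided permutation p of 0.1 (0.1 after Benjamini-Hochberg adjustment over the 5), the smallest that 3 libraries against 3 allow. Of 13606 single genes 5898 lay above and 5778 below without overlap, so standing apart does not single out these pairs. Ratios of other gene pairs were not examined. Both cap ratios share PSME3, which itself fell (-0.30), so they are not independent.

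Levels of different genes can be compared only per length of transcript. Per kilobase of transcript, PSMB8 made up 17.3% ± 0.844 (SD, n = 3) of the summed level of PSMB8 and PSMB5 in scramble and 24.1% ± 0.292 in labelled knockdown. PSMB9 made up 8.84% ± 0.939 of its pair with PSMB6 in scramble and 19.04% ± 1.54 in labelled knockdown. PSMB10 made up 3.44% ± 0.178 and 9.99% ± 0.122 of its pair with PSMB7. The constitutive gene thus remained the more abundant transcript of each pair in both groups. The order of the shares was the same in both, PSMB8 first and PSMB10 last. With the longest principal transcript in place of the one with the lowest RefSeq accession, PSMB8 stood at 20.04% and 27.7%, and the other pairs were unaffected.

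**Figure D3:**
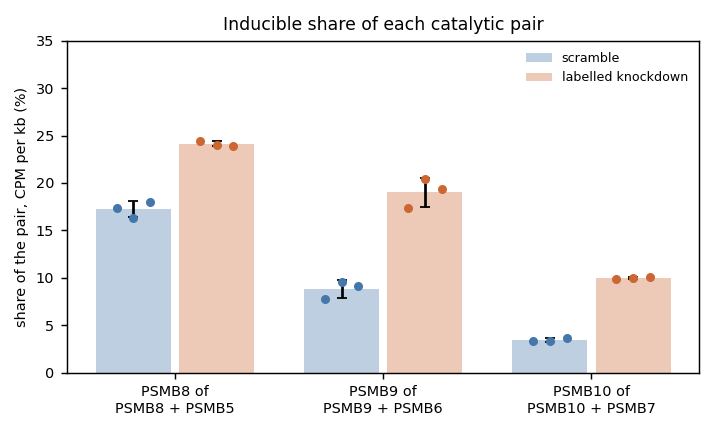
Share of the inducible gene in the summed level of each catalytic pair (CPM per kilobase of transcript, in percent), as the mean of 3 libraries per group with its standard deviation and 1 point per library. The PSMB9 share goes from 8.84% to 19.04% and is at most 20.4% in any library.

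Of the 7 alpha ring genes with reads 6 rose and PSMA4 fell, where 43.4% of all genes tested rose and 42.5% fell. Against a 1.5-fold change 3 were higher and 1 lower (all genes 24.3% and 21.6%), and the median log2 fold change was 0.63. PSMA2 had 61.7, 61.8 and 63.2 CPM in scramble and 190.2, 194 and 187 CPM in labelled knockdown, the largest rise among subunits of the constitutive particle (1.61 ± 0.04 on the log2 scale, edgeR adjusted p = 9.60e-32). PSMA7 had 185, 171 and 185 CPM in scramble and 395, 402 and 389 CPM in labelled knockdown (1.13 ± 0.03, edgeR adjusted p = 1.05e-28). PSMA4, which lies in the same ring, had 254, 244 and 241 CPM in scramble and only 157, 158 and 152 in labelled knockdown (-0.66 ± 0.03, edgeR adjusted p = 1.30e-20). Its groups did not overlap. PSMA1 rose by 1.05, PSMA6 by 0.63, PSMA3 by 0.30 and PSMA5 by 0.18 on the log2 scale. Stretches of 50 bases shared with other loci made up 63.7% of the PSMA6 transcript and 16.8% of PSMA2, against 0% of PSMA7 and PSMA4. Other annotated genes on the same strand overlap 80.95% of PSMA6, 53.2% of PSMA1 and 52.5% of PSMA2, so these 3 values are less certain than those of PSMA7 and PSMA4, which none overlaps.

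In the constitutive beta ring 5 of 7 genes rose, PSMB7 fell slightly as described and PSMB1 did not pass (0.06 ± 0.03 on the log2 scale, edgeR adjusted p = 0.0908), beside 43.4% of all genes that rose. With library totals in place of TMM, PSMB1 passed too (0.11, edgeR adjusted p = 0.00166). The largest rises belonged to subunits without a cutting site. PSMB3 had 66.3, 71.1 and 70.4 CPM in scramble and 146, 152 and 151 CPM in labelled knockdown (1.11 ± 0.04, edgeR adjusted p = 1.16e-25). PSMB2 had 154, 162 and 157 CPM in scramble and 260.0, 269 and 257 CPM in labelled knockdown (0.73 ± 0.03, edgeR adjusted p = 3.55e-22). PSMB4 rose by 0.43 on the log2 scale. For PSMB3, 24.4% of its 50-base stretches occur elsewhere, most often in PSMB3P2. Over the 14 constitutive 20S genes with reads the median was 0.49, with 5 higher and 1 lower against a 1.5-fold change, beside 24.3% and 21.6% of all genes.

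Of the 17 genes of the 19S cap 6 rose, 7 fell and 4 did not pass. These counts lie near the 43.4% and 42.5% of all genes and are no result about the cap. Their median log2 fold change was -0.04. Among the ATPases, which form a ring that threads the substrate into the core, 1 of 6 rose and 3 fell. PSMC5 had 400.0, 412 and 406 CPM in scramble and 219, 227 and 222 CPM in labelled knockdown (-0.87 ± 0.03, edgeR adjusted p = 4.87e-26). A gene on the other strand, FTSJ3, overlaps 27.2% of the PSMC5 transcript. PSMC6 had 108, 103 and 107 CPM in scramble and 62.4, 59.1 and 63.1 CPM in labelled knockdown (-0.79 ± 0.04, edgeR adjusted p = 1.06e-19), though 68.3% of its 50-base stretches are shared with other loci. PSMC4 fell by 0.46 on the log2 scale. PSMC2 went up, from 95.9, 97.97 and 98.6 to 159.6, 156 and 151 CPM (0.67 ± 0.04, edgeR adjusted p = 1.71e-19), though 17.2% of its 50-base stretches are shared. Genes of 1 ring thus differed in direction, which the shares of all genes given above make common.

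PSMC3 did not pass (0.01 ± 0.03, edgeR adjusted p = 0.668), and neither did PSMC1. For PSMC3, 28.1% of the 50-base stretches are shared with other loci. PSMC1 stood out by its level, with 15, 20 and 21 reads in scramble and 21, 23 and 38 in labelled knockdown, although its protein is part of every cap. The other ATPase genes had 1531 reads or more in every library. Of the 50-base stretches of the PSMC1 transcript 34.8% occur in other loci, most often the pseudogene PSMC1P1, and 82.1% of its exons overlap NRDE2 on the other strand. Their part in the low count was not tested, and the PSMC1 value (log2 fold change 0.37 ± 0.30, edgeR adjusted p = 0.237) carries little weight.

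Among the 11 non-ATPase subunits 5 rose, 4 fell and PSMD6 (-0.05 ± 0.04, edgeR adjusted p = 0.177) and PSMD11 (-0.04 ± 0.03, edgeR adjusted p = 0.306) did not pass. These counts lie close to the shares of all genes, 43.4% higher and 42.5% lower. PSMD7, a scaffold of the lid, had 307, 289 and 309 CPM in scramble and 127, 124 and 125 CPM in labelled knockdown, the largest fall of all subunits (-1.27 ± 0.03 on the log2 scale, edgeR adjusted p = 7.96e-30). An annotated RNA on the other strand overlaps 50.4% of PSMD7. Its direct partner in the lid, the deubiquitinase PSMD14, rose from 128, 132 and 130.3 to 189, 189.6 and 187 CPM (0.54 ± 0.03, edgeR adjusted p = 1.82e-17). The genes of this pair thus moved in opposite directions, which is common where 43.4% of all genes rose and 42.5% fell. PSMD12, another lid subunit, had 265, 257 and 251 CPM in scramble and 144, 141 and 144 CPM in labelled knockdown (-0.85 ± 0.03, edgeR adjusted p = 2.25e-24). Of its 50-base stretches 21.8% are shared with other loci.

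PSMD2, a large base subunit that binds ubiquitin-like domains, had 498, 521 and 518 CPM in scramble and 837, 827 and 807 CPM in labelled knockdown (0.69 ± 0.03, edgeR adjusted p = 1.34e-23). Its structural relative PSMD1 went the other way and fell by 0.43 on the log2 scale. PSMD13 had 149, 140.0 and 145 CPM in scramble and 219.6, 224 and 219.6 CPM in labelled knockdown (0.61 ± 0.03, edgeR adjusted p = 2.63e-19). PSMD3 rose by 0.59 and the ubiquitin receptor gene PSMD4 by 0.18, while PSMD8 fell by 0.39 on the same scale. For PSMD4, 81.8% of its 50-base stretches occur elsewhere, most often in PIPSL, and for PSMD2 38.4%.

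PSME3, PSME4 and PSMF1 each fell, as did 42.5% of all genes tested. PSMF1, which encodes PI31, a proteasome-binding protein first described as an inhibitor, had 229, 236 and 225 CPM in scramble and 118, 118 and 118 CPM in labelled knockdown (-0.97 ± 0.03 on the log2 scale, edgeR adjusted p = 7.84e-26). PSME4, the large nuclear activator PA200, had 265, 253 and 263 CPM in scramble and 177, 164 and 172 CPM in labelled knockdown (-0.61 ± 0.03, edgeR adjusted p = 3.17e-19). PSME3 had 379, 394 and 374 CPM in scramble and 312, 308 and 314 CPM in labelled knockdown (-0.30 ± 0.03, edgeR adjusted p = 1.22e-11). Of the 3 only PSMF1 was lower against a 1.5-fold change, a test that 21.6% of all genes passed in that direction. None of their 50-base stretches matched an annotated transcript of another, non-overlapping gene.

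Among the 7 assembly chaperones 5 rose, beside 43.4% of all genes. Only PSMG4 and PSMG2, which act in building the alpha ring, were higher against a 1.5-fold change, 2 of 7 and close to the 24.3% of all genes. PSMG4 had 8.25, 10.7 and 8.73 CPM in scramble and 31.9, 33.9 and 33.5 CPM in labelled knockdown, the largest rise of all 47 genes (1.85 ± 0.08 on the log2 scale, edgeR adjusted p = 2.97e-23), and 0% of its 50-base stretches are shared. It is also the gene outside the inducible group whose promoter window holds the exact core GAAAGCGAA shown above, which was picked after the matches had been seen. A part of this core in the rise was not tested. Genes with other inner letters, PSMC2, PSMB4 and PSMA4, changed by 0.67, 0.43 and -0.66 on the log2 scale. Members with no match in their windows also went both ways, among them PSMB9 (1.41), PSMA2 (1.61) and PSMD7 (-1.27). PSMG3, with which PSMG4 forms a dimer, rose by 0.25. PSMG2 had 39.7, 43.2 and 42.2 CPM in scramble and 90.2, 89.7 and 91.2 CPM in labelled knockdown (1.12 ± 0.05, edgeR adjusted p = 1.76e-23), while its dimer partner PSMG1 fell, from 106, 101 and 108 to 86.98, 90.9 and 89.8 CPM (-0.24 ± 0.04, edgeR adjusted p = 1.53e-06). Of the chaperones of the ATPase ring, PSMD5 rose by 0.19 and PSMD9 by 0.17, and PSMD10 (gankyrin) did not pass (0.07 ± 0.05, edgeR adjusted p = 0.136), except with library totals in place of TMM (0.12, edgeR adjusted p = 0.0120). Other annotated genes on the same strand overlap 43.8% of PSMD9, and 18.3% of the 50-base stretches of PSMD10 are shared. PSMC3IP, a recombination factor that matches the symbol pattern but is no part of the proteasome, had 81.2, 79.8 and 79.3 CPM in scramble and 33.7, 35.5 and 33.4 in labelled knockdown (-1.23 ± 0.05, edgeR adjusted p = 2.56e-24).

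**Figure D4:**
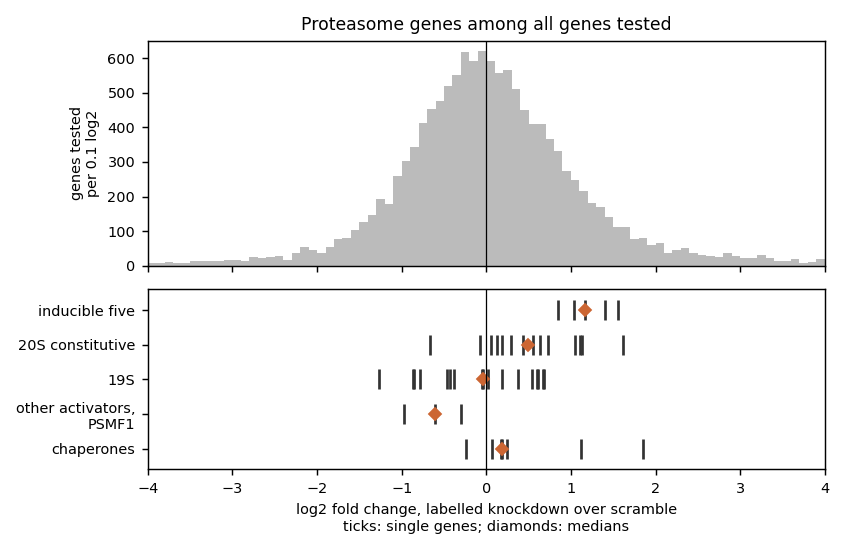
Top, the number of genes tested per 0.1 of log2 fold change (596 genes at or beyond 4 in size are not drawn); bottom, the proteasome genes by role, 1 tick per gene with a diamond at each median. The inducible ticks lie between 0.84 and 1.56, those of the constitutive 20S genes between -0.66 and 1.61, and those of the 19S cap between -1.27 and 0.69.

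Subunits that stand in equal number in the finished particle did not have equal read levels per kilobase of the chosen transcript. Among the 14 constitutive 20S genes the level per kilobase ran from 41.9 ± 0.576 CPM (SD, n = 3) for PSMA2 to 282 ± 3.85 for PSMB1 in scramble, a 6.75-fold range. In labelled knockdown it ran from 62.3 ± 1.78 for PSMA5 to 397 ± 6.81 for PSMA7, a 6.37-fold range. For the 19S genes without PSMC1 the range was 6.96-fold in scramble, with PSMC2 lowest and PSMC5 highest, and 7.37-fold in labelled knockdown, with PSMD12 lowest and PSMD2 highest. Reads that align to several loci stand in a summary line of the deposited files, outside the genes, so these ranges describe uniquely aligned reads. They also depend on the transcript chosen, of 3729 bases for PSMA5 and 996 for PSMA7. Another transcript choice was tried for the catalytic pairs only. PSMA2, the lowest in scramble, is the gene of which 52.5% overlaps other genes on its strand.

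Genes that work with the proteasome but carry other names were read from lists. Of 19 partners of the particle 8 rose and 10 fell (4 and 5 against a 1.5-fold change), with a median log2 fold change of -0.19. Over all genes 43.4% rose and 42.5% fell (24.3% and 21.6% against 1.5-fold), so these counts are close to the background. The cap's other deubiquitinases parted: USP14 had 104, 100.3 and 111 CPM in scramble and 209, 204 and 204 in labelled knockdown (0.97 ± 0.04, edgeR adjusted p = 1.26e-24), and UCHL5 had 162, 157 and 160.2 and 86.9, 84.9 and 78.8 (-0.93 ± 0.04, edgeR adjusted p = 2.10e-23). The ubiquitin receptor gene ADRM1, which anchors UCHL5, fell by 0.46 on the log2 scale. The arsenite-inducible ZFAND2A (2.07 ± 0.10) and its relative ZFAND5 (0.76 ± 0.04) rose, and the proteasome phosphatase gene UBLCP1 (-1.08 ± 0.04) and the thioredoxin-like gene TXNL1 (-0.74 ± 0.04) fell. POMP, the maturation factor of the 20S particle, rose by 0.52.

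NFE2L1 encodes NRF1, the factor known to raise subunit genes when proteasome activity is short. Its list rose in 8 of 10 cases and fell in 1, with a median of 0.46, where 43.4% of all genes rose. Against a 1.5-fold change it had 2 of 10 higher and 1 lower, near the 24.3% and 21.6% of all genes. NFE2L1 itself rose slightly (0.15 ± 0.03 on the log2 scale, edgeR adjusted p = 9.70e-06). VCP, the segregase that pulls NRF1 from the endoplasmic reticulum, had 409, 404 and 384 CPM in scramble and 816, 822 and 798 in labelled knockdown (1.03 ± 0.03, edgeR adjusted p = 5.42e-29). Its cofactor gene NPLOC4 (0.61 ± 0.03) and the small MAF gene MAFK (0.77 ± 0.05) rose, and DDI2, the protease that cleaves NRF1, fell (-0.79 ± 0.13). All 5 genes of ubiquitin and its activating enzymes examined rose, 2 of them against a 1.5-fold change (43.4% and 24.3% of all genes), with a median of 0.49, led by UBA1 (1.32 ± 0.03), RPS27A (1.52 ± 0.04) and UBA6 (0.49 ± 0.04).

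The route by which interferon and NF-kB are known to raise the inducible subunits had 7 of 9 genes examined higher and 2 lower, with a median of 0.44, where 43.4% of all genes were higher and 42.5% lower. Against a 1.5-fold change 3 of 9 were higher and 0 lower, beside 24.3% and 21.6% of all genes. IRF1, the factor that acts on these promoters, had 22.1, 18.2 and 20.7 CPM in scramble and 75.04, 78.6 and 74.02 in labelled knockdown (1.90 ± 0.06, edgeR adjusted p = 6.82e-28). NLRC5, the co-activator of MHC class I genes, had 10.9, 9.73 and 9.04 and 33.4, 35.8 and 35.5 CPM (1.81 ± 0.07, edgeR adjusted p = 7.86e-24), and the receptor chain gene IFNGR2 rose as well (1.27 ± 0.05). IRF2, a relative of IRF1 that can act against it (-0.34 ± 0.06), and the receptor-bound kinase gene JAK2 (-0.50 ± 0.10) fell.

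Downstream of the proteasome, genes of peptide transport and trimming rose in 7 of 9 cases, with a median of 0.60, where 43.4% of all genes rose. Against a 1.5-fold change 3 were higher and 1 lower, beside 24.3% and 21.6% of all genes. TAP1, the peptide transporter subunit whose gene is paired head to head with PSMB9, had 24.5, 24.9 and 26.5 CPM in scramble and 156, 157 and 155 in labelled knockdown (2.62 ± 0.05, edgeR adjusted p = 3.38e-36). TAP2, its partner subunit, rose by 0.55. The trimming peptidase genes ERAP1 (1.49 ± 0.04) and NPEPPS (1.12 ± 0.04) rose, whereas TPP2, which shortens long proteasome products in the cytosol, fell from 183, 182 and 179.7 to 78.6, 72.7 and 73.01 CPM (-1.28 ± 0.04, edgeR adjusted p = 2.73e-28). Neighbouring steps of 1 route thus differed in direction, which is common where 43.4% of all genes rose and 42.5% fell.

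**Figure D5:**
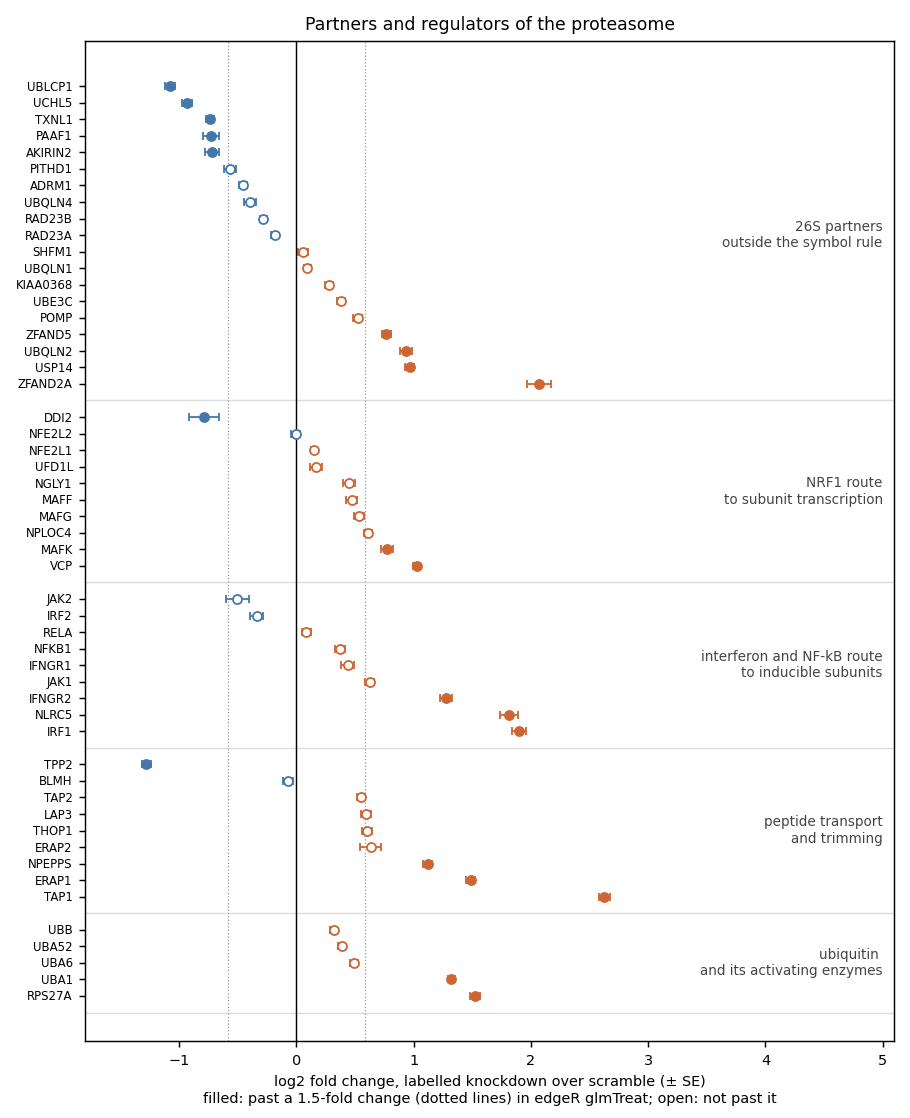
Log2 fold change (labelled knockdown over scramble, n = 3 libraries per group) of the genes outside the symbol pattern, 1 point per gene with its standard error, in the 5 lists. Filled points passed the test against a 1.5-fold change: TAP1 lies farthest right at 2.62 and TPP2 farthest left at -1.28.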

How the data were processed

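Polyadenylated RNA of 6 libraries was read as single 50-base reads from a stranded mRNA kit, per the labels' protocols. The tools named in the submitters' processing notes are bcl2fastq, HTSeq and TopHat2 2.0.8b, the build hg19. No source used here gives the annotation or HTSeq's strand and overlap settings. What the authors deposited are read counts per gene without normalization. The 5 summary lines, 41.0% to 49.7% of each file's total, were left out.

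Libraries were grouped by title. Genes kept by filterByExpr (13606) were scaled by TMM and tested in edgeR 4.0.16 (R 4.3.3) with the quasi-likelihood test and with glmTreat against 1.5-fold, two-sided, Benjamini-Hochberg over all genes, threshold 0.05. SE is the fold change over the root of F. The fit was also run on simulated counts in which few genes were changed, as many up as down. That run does not cover libraries such as these, in which 85.9% of the genes tested were called. DESeq2 1.42.0, limma-voom (limma 3.58.1) and other settings served as alternatives.

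Lengths and shared 50-base stretches came from GENCODE 29 (GRCh38), which matched all 49 genes, with bwa 0.7.19, up to 2 mismatches and no gaps, leaving out genes that overlap the locus. Only annotated transcripts were searched for shared stretches, not the rest of the genome. The transcript with the lowest RefSeq accession was used, a choice made after first lengths had been seen. Named genes are all members and, per outside list, up to 3 in each direction by adjusted p. ADRM1, POMP, NFE2L1, TAP2 and PSMD14 were named apart from that rule after their values were seen, as were members beyond the 2 largest changes per role and the markers. From the outside lists 2 genes are not reported here and left out of the counts. Members and lists were chosen with earlier results of these data known.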

Additional observations from a re-analysis of the deposited data

How the results depend on the processing

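With each alternative run, the 41 called proteasome genes became 40 to 42, and the counts by direction and against 1.5-fold stayed within 1.5 times their value. The 5 inducible genes and the 5 ratios kept direction, and the genes kept their call. With the replicate block 41 genes were called. Replicate numbers are shared only as numbers: deviations of same-numbered libraries correlated at 6.66e-04 to 0.0171, and 1 of the 3 did not correlate best with its own number. No call changed with the block. Signs turned for genes near 0 only. With library totals PSMD11 was at 0.0135 and PSMD6 at 3.51e-04, and leaving out 1 library moved PSMC3 between -0.0095 and 0.0321. PSMD6 passed without scramble replicate 1 (-0.08, edgeR adjusted p = 0.0428). The cause was not tested. Leaving out 1 library leaves 2 in its group, whose spread is pooled with the other. PSMC1 had 15 to 38 reads, and PSMA8 and PSMB11, with 0, could not be tested.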

Other observations

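Further motif letters were counted in the same promoter windows. TGACNNNGC, the core of the antioxidant response element to which NRF1 and NRF2 bind, occurred for 12 of the 38 genes outside the inducible group (31.6%) and for 3 of the 5 inducible genes, where 16.1% of all genes in the table had it. TTCNNNGAA, the interferon-gamma activated site, occurred for 7 of the 38 (18.4%), PSMB5 among them, and for 1 of the 5, against 9.38% of all genes. These are counts of letters and carry no test. PSMA7, PSMB1, PSMB6, PSMB7, PSMD4 and PSMG3 were not matched in the table.

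Shared sequence was uneven across the 49 genes. For 28 of them under 1% of the 50-base stretches of the transcript occurred in an annotated transcript of another locus, and for 13 over 10%. The highest shares were those of PSMD4 (81.8%), PSMC6 (68.3%) and PSMA6 (63.7%). The summary line for alignments that are not unique made up 34.0% to 34.2% of the total in scramble files and 29.3% to 29.6% in labelled knockdown files. Whether that line counts a read more than 1 time is not given in the sources used here. The part of this difference in the values of those genes was not tested.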
